A study of Mus musculus with 6 samples.

Results

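The thin filament of the heart muscle sarcomere was followed here through 10 genes for actins, troponins and tropomyosins. They were taken from a fixed list by symbol, each read by its brightest probe with exactly 1 gene symbol, and make up 10 of the 19938 genes named on the arrays. All 10 were found, with 1 probe each. The hearts came from untreated mice aged 12 months, 3 of them wild-type and 3 labelled as a cenpf knock-out, with total RNA of 1 heart on each Affymetrix array. Cenpf encodes centromere protein F, a large microtubule-binding protein of the kinetochore. Strain, sex, the deleted part of Cenpf, the promoter of any Cre and the part of the heart sampled were not given in the sources used here. Replicates carry the label biological, and each is read here as 1 mouse.

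Thin filaments are polymers of actin along which tropomyosin lies. Tropomyosin covers the myosin-binding sites at rest, and the troponin complex moves it aside when calcium binds. Troponin C binds calcium, troponin I inhibits, and troponin T ties the complex to tropomyosin. Each subunit has several genes. Adult mouse ventricle mainly uses Actc1, Tnnt2, Tnni3, Tnnc1 and Tpm1, called the cardiac forms below. Acta1, Tnnt1, Tnni1, Tnnc2 and Tpm2 are forms of skeletal muscle, with Tnnt1 and Tnni1 of the slow and Tnnc2 of the fast type. Some of them, such as Tnni1 and Acta1, are also active in the fetal heart. A higher level of Acta1 in the adult rodent heart is a widely used sign of load or hypertrophy.

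The results turn mostly on the actin pair, so the stretches just before their start sites are shown. Both come from RefSeq on GRCm38.p6, cover the 250 bases before the start on the minus strand and run 5′ to 3′. Actc1 lies at chr2:114052876-114053125 and Acta1 at chr8:123894776-123895025. Capitals mark a CArG box, the element bound by serum response factor, searched on both strands as CCWWWWWWGG, where W is A or T. Looser forms of the element were not searched.
Actc1: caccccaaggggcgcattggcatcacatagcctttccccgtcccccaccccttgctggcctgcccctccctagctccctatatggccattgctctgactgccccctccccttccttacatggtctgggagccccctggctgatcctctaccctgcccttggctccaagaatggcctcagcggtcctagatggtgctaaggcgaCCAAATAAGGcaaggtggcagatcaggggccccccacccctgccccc
Acta1: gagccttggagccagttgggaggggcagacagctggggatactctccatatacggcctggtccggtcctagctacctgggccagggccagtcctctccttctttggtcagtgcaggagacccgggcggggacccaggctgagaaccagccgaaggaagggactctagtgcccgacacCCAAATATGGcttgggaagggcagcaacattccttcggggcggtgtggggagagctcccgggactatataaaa
Each stretch held 1 strict CArG box, CCAAATAAGG beginning 47 bases before the Actc1 start and CCAAATATGG beginning 73 bases before that of Acta1. None of the other 8 genes held one in its windows, against 1.47% of all 32841 promoter windows of the same length in the table. Other motifs searched were CATTCC (the MCAT element), CANNTG (the E-box) and TATAAA, again on both strands, and none overlapped a CArG box in these genes. CATTCC was found for Acta1, Tnnt2, Tnnc1 and Tpm1, and in 12.6% of all windows. TATAAA was found for Acta1 and Tnnt1, and in 12.4%. CANNTG was found for 9 of the 10 genes, all but Actc1, and in 66.2%. These matches describe letters in a window and no binding was measured.

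Values are the deposited log2 signals, so a difference of 1 is a doubling. A background level of 6.35 was set at the 95th percentile of 1210 olfactory and vomeronasal receptor probes, taken as silent in heart. Array medians lay between 6.92 and 6.97. The targeted gene Cenpf read 8.75, 8.54 and 8.04 in wild-type hearts and 6.35, 6.10 and 6.68 in knock-out hearts, so all knock-out values lay below all wild-type values. Its difference of -2.07 (standard error 0.21) passed the test across all probes (limma, adjusted p = 0.0286). All 7 markers of ventricular cardiomyocytes lay above background, so the label of heart tissue held for these genes. Wild-type replicate 3 stood nearer the mean of the knock-out hearts than that of the other two wild-type hearts for 59.4% of all genes and for 7 of the 10 thin filament genes. This array was set apart by that likeness, so leaving it out is not a neutral check. Where leaving it out changed a call, and for several other results, the value without it is given. Differences near 0 also moved without it. Tnnc1 went from 0.024 to 0.07, Tpm2 from 0.044 to 0.086 and Tpm2 relative to Tpm1 from 0.03 to 0.09. Actc1 went from 0.032 to -0.0019 and Tpm1 from 0.011 to -0.0052.

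In the knock-out hearts 0 of the 10 genes passed at an adjusted p under 0.05 (limma, Benjamini-Hochberg over 21789 probes), where 0.0275% of all probes did. Adjusted p lay between 0.412 for Tnnc2 and 0.978 for Tpm1. At an unadjusted p under 0.05 there were 2, Acta1 and Tnnc2, both higher in the knock-out hearts, against 9.90% of all probes in either direction and 4.66% on the higher side. At an unadjusted p under 0.01 with a change of at least 1.5-fold there were 0, against 0.854%. The median difference over the 10 genes was 0.028, and over all probes it was -0.0082. The median size of the difference, regardless of sign, was 0.056 for the 10 genes and 0.11 for all probes. Groups did not overlap for 1 gene, Tnnc2, where 14.8% of all probes had such groups and 7.33% had the knock-out hearts higher. Without wild-type replicate 3 there were 4 (Acta1, Tnnt2, Tnnc1 and Tnnc2), without knock-out replicate 2 there were 4 (Acta1, Tnnt1, Tnni3 and Tnnc2) and without wild-type replicate 1 there were 2 (Tnni3 and Tnnc2), where 34.2%, 23.2% and 22.9% of all probes did not overlap.

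**Figure D1:**
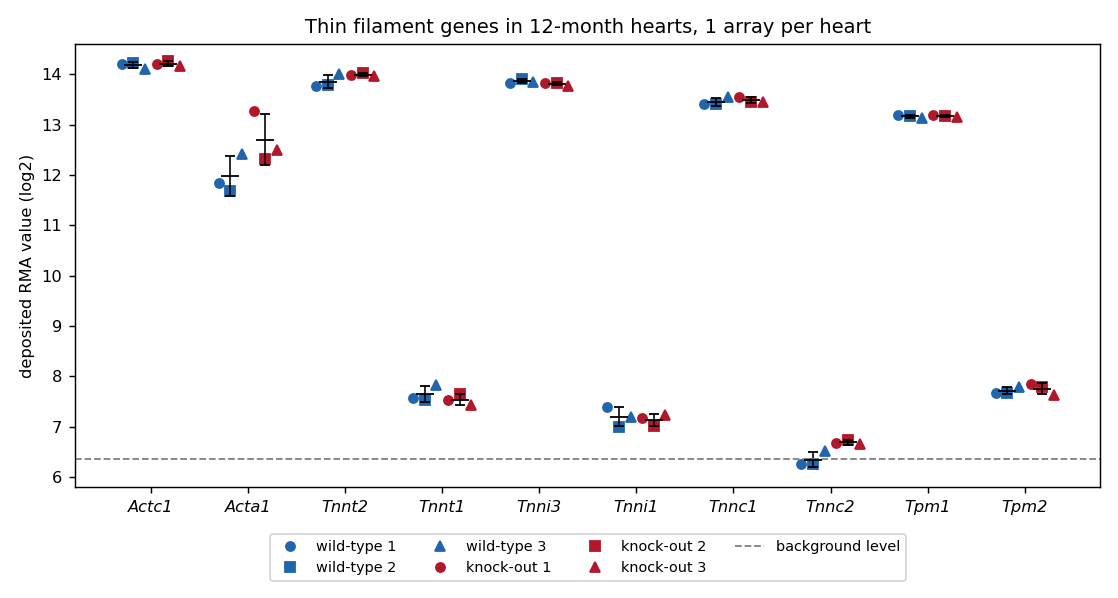
Deposited log2 value of each thin filament gene in each of the 6 hearts, with circles, squares and triangles for replicates 1, 2 and 3 of the wild-type (blue) and knock-out (red) groups; black bars are group means with SD (n = 3) and the dashed line is the background level of 6.35. The 5 cardiac forms sit between 13.13 and 14.26, Acta1 is the most spread, and Tnnc2 lies at the background level; heights of different probes are not comparable as amounts of transcript.

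The cardiac forms varied little. Over the 6 hearts they read between 13.13 and 14.26, near the highest value of the table at 14.46, and the SD over all 6 arrays was between 0.024 and 0.12, where the median over all probes was 0.16. Whether signal so near the top of the scale understates differences was not tested. Actc1, the main actin of the adult heart, read 14.20, 14.22 and 14.11 in wild-type hearts and 14.21, 14.26 and 14.16 in knock-out hearts. The groups overlapped, and the difference was 0.03 with a 95% interval of -0.18 to 0.24 (limma, adjusted p = 0.932).

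Tnnt2, the cardiac troponin T that anchors the complex to tropomyosin, read 13.76, 13.78 and 14.00 in wild-type and 13.98, 14.02 and 13.97 in knock-out hearts. Wild-type replicate 3 lay among the knock-out hearts and the other two wild-type hearts lay below them. The difference of 0.14, with a 95% interval of -0.09 to 0.38, did not pass (limma, adjusted p = 0.663), and without wild-type replicate 3 it was 0.22. This was the largest difference among the cardiac forms.

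Tnni3, the cardiac troponin I whose phosphorylation speeds relaxation, read 13.83, 13.90 and 13.85 against 13.82, 13.83 and 13.77. The groups touched, with a difference of -0.05 and an interval of -0.26 to 0.15. Tnnc1, the calcium-binding troponin C of heart and slow muscle, read 13.41, 13.40 and 13.55 against 13.54, 13.44 and 13.45, and its groups overlapped. Its difference was 0.02 with an interval of -0.19 to 0.24. Tpm1, the main cardiac tropomyosin, read 13.19, 13.16 and 13.13 against 13.19, 13.17 and 13.15. It had the smallest spread of the 10 genes, a range of 0.06 over all hearts, and a difference of 0.01 with an interval of -0.19 to 0.21.

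Taking the 5 cardiac forms as a group, 95% intervals ran from -0.26 to 0.38, which is 0.837-fold to 1.30-fold. A 1.5-fold difference in either direction lay outside each of them. In RNA of heart tissue, fewer cardiomyocytes and less transcript in each cardiomyocyte cannot be told apart.

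Acta1, the skeletal actin, varied most of the 10 genes. It read 11.84, 11.67 and 12.42 in wild-type hearts and 13.27, 12.31 and 12.50 in knock-out hearts, a range of 1.60 over all 6. Knock-out replicate 1 was highest, wild-type replicates 1 and 2 were lowest, and wild-type replicate 3 lay above knock-out replicate 2, so the groups overlapped. Group means were 11.98 ± 0.39 and 12.70 ± 0.51 (SD, n = 3). The difference of 0.72, or 1.64-fold, had a 95% interval of 0.09 to 1.34 and did not pass over all probes (limma, adjusted p = 0.472). It was 0.43 without knock-out replicate 1 (adjusted p = 0.495) and 0.94 without wild-type replicate 3 (adjusted p = 0.168), within a range of 0.168 to 0.842 for the adjusted p across the settings tried.

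Tnnc2, the calcium-binding troponin C of fast skeletal muscle, was at the edge of detection. It read 6.26, 6.26 and 6.51 in wild-type hearts and 6.67, 6.74 and 6.66 in knock-out hearts. Every knock-out value lay above every wild-type value, and 2 wild-type values lay below the background level of 6.35. The fitted difference was 0.35 with a standard error of 0.11 and a 95% interval of 0.10 to 0.59 (limma, adjusted p = 0.412). With wild-type values below background set to that level, the mean difference was 0.29, or 1.22-fold. Across alternatives the fitted value stayed between 0.31 and 0.43, and the adjusted p between 0.101 and 0.809.

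The other 3 skeletal or fetal forms lay at 7.00 to 7.85, above background in every heart, with overlapping groups. Tnnt1, the slow skeletal troponin T, read 7.57, 7.53 and 7.83 in wild-type and 7.52, 7.65 and 7.43 in knock-out hearts. Wild-type replicate 3 was the highest heart, and the difference of -0.11 (interval -0.38 to 0.16) was -0.016 without it. Tnni1, the slow skeletal troponin I that the heart uses before birth, read 7.39, 7.00 and 7.20 against 7.17, 7.01 and 7.23. Its difference was -0.06 with an interval of -0.35 to 0.23, so a 1.5-fold rise of its probe signal lay outside the interval. Whether signal this near the background level of 6.35 understates differences in transcript was not tested for these 3 forms. Tpm2, the beta tropomyosin, read 7.66, 7.67 and 7.79 against 7.85, 7.78 and 7.63, with a difference of 0.04 (interval -0.19 to 0.28).

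**Figure D2:**
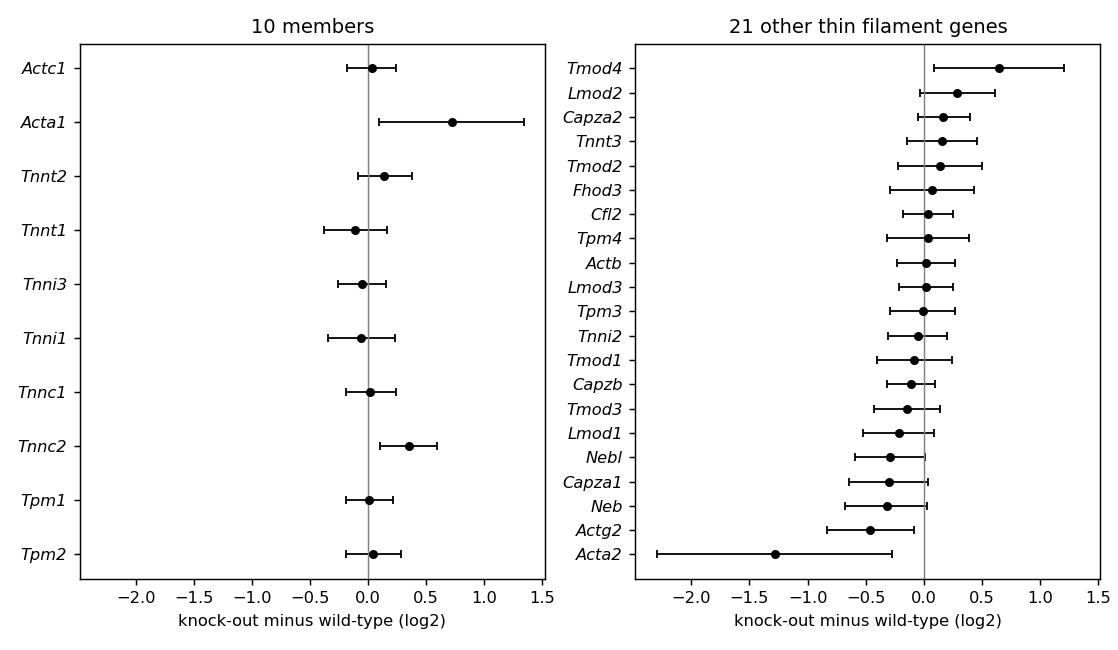
Knock-out minus wild-type difference on the log2 scale for the 10 thin filament genes (left) and 21 further thin filament genes (right), as points with 95% intervals from limma, 3 hearts a group. Acta1 at 0.72 and Tnnc2 at 0.35 have intervals above 0 before adjustment on the left, and Acta2 at -1.28 is the lowest on the right; none passed the adjusted threshold.

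Since heart muscle can swap isoforms of a subunit, each skeletal or fetal form was also read relative to its cardiac partner within the same array. The wild-type mean of each such difference was set to 0, so the values show unequal change and not amounts, and no test was made on them. Acta1 relative to Actc1 stood at -0.17, -0.35 and 0.51 in wild-type hearts and at 1.26, 0.25 and 0.54 in knock-out hearts. The knock-out mean was 0.68 ± 0.52 against a wild-type SD of 0.45 (n = 3 each), and the groups overlapped through wild-type replicate 3. The knock-out minus wild-type value was 0.40 without knock-out replicate 1 and 0.94 without wild-type replicate 3. Actc1 itself had a range of 0.15 over the 6 hearts, against 1.60 for Acta1.

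Tnnc2 relative to Tnnc1 stood at -0.04, -0.03 and 0.08 in wild-type and 0.23, 0.41 and 0.33 in knock-out hearts. Since 2 of the wild-type Tnnc2 values lay below background, the pair was also read with Tnnc2 at no less than that level, which gave -0.01, 0.00 and 0.02 against 0.17, 0.35 and 0.27. Tnnt1 relative to Tnnt2 went the other way, at 0.01, -0.04 and 0.03 against -0.25, -0.16 and -0.34. That mean of -0.25 ± 0.09 was lower than in any wild-type heart, although neither gene by itself had separate groups. The troponin I and tropomyosin pairs had overlapping groups, with knock-out means of -0.01 ± 0.15 and 0.03 ± 0.10. The share of non-overlapping groups among pairs of other genes was not computed, so nothing is read from how many of the 5 pairs separated. Over single probes that share was 14.8%.

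**Figure D3:**
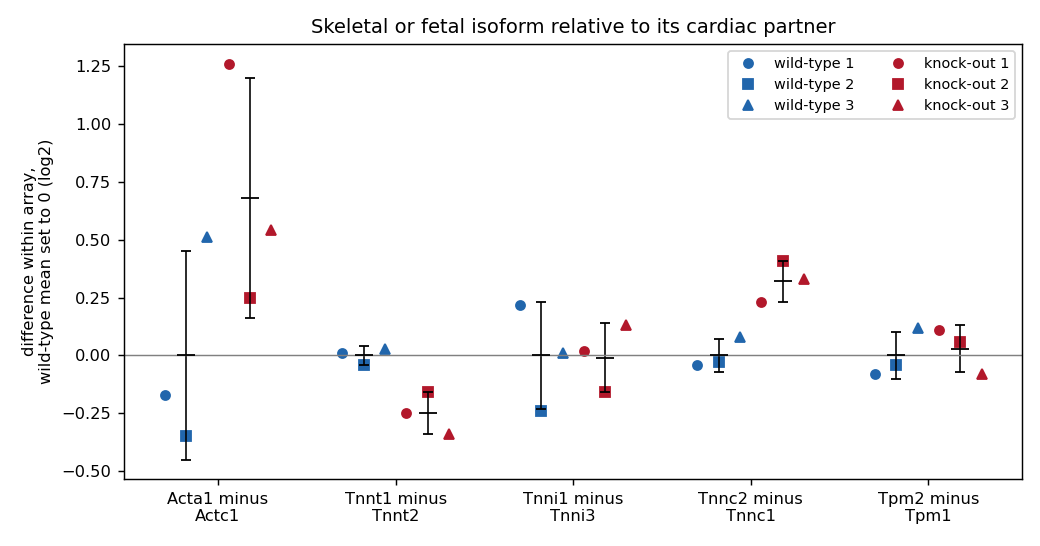
Difference of each skeletal or fetal isoform from its cardiac partner within an array, on the log2 scale with the wild-type mean set to 0; colours and symbols mark the 6 hearts and bars are means with SD (n = 3). The actin pair spreads widely in both groups, the troponin T pair lies below all wild-type hearts in the knock-out hearts, and the troponin C pair above, with 2 wild-type Tnnc2 values below background.

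In the RefSeq gene table Tnni3 and Tnnt1 are direct neighbours, and Tnni1 and Tnnt2 have 1 gene, Lad1, between them. Each of these neighbouring pairs therefore joins a cardiac form with a slow skeletal one. In each the cardiac gene read above 13 in every heart while its neighbour stayed under 8, with Tnni3 at 13.77 to 13.90 beside Tnnt1 at 7.43 to 7.83. The probes differ in sequence, so these levels say only which gene is far from background. Probe sequences were not used here, and whether the closely similar transcripts of the family, above all the actins, share signal between probes was not tested.

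Likeness to Acta1 was measured as the root mean square difference between profiles over the 6 arrays, each centred on its own mean, among 14138 other genes above background. Acta1 was the only member whose SD over the arrays, at 0.56, passed the 0.3 set for this search. The nearest was Nppa, the atrial natriuretic peptide, at 0.11, followed by Svep1, which encodes a large adhesion protein of the matrix, at 0.12 and Ccn5, a secreted matricellular protein, at 0.13. For scale, Acta1 itself lay 0.52 from a flat line. Nppa read 11.63, 11.65 and 12.47 in wild-type and 13.12, 12.17 and 12.59 in knock-out hearts, so it shared with Acta1 a high knock-out replicate 1 and a wild-type replicate 3 above knock-out replicate 2. Svep1 and Ccn5 had groups that did not overlap, with differences of 0.94 (limma, adjusted p = 0.391) and 0.69 (adjusted p = 0.457). Without knock-out replicate 1 that of Ccn5 was 0.39. None of these 3 genes passed, and they were picked for their likeness.

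**Figure D4:**
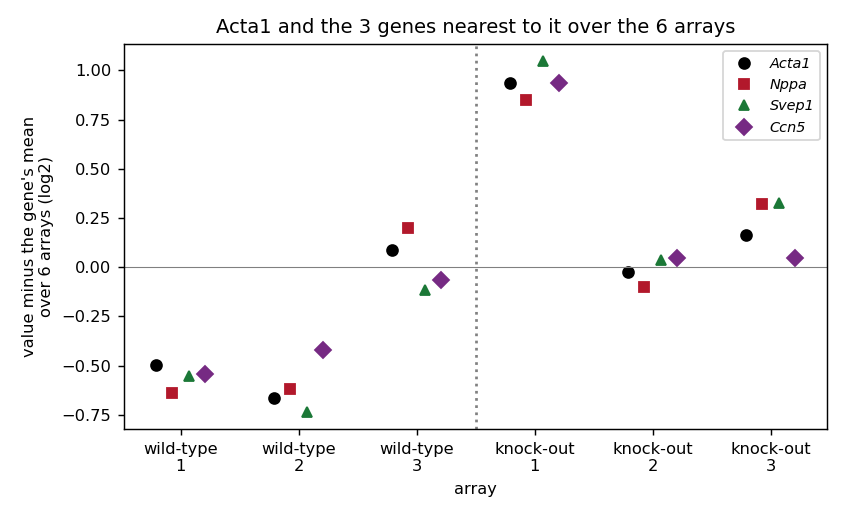
Value of Acta1, Nppa, Svep1 and Ccn5 in each heart minus the gene's mean over the 6 arrays, on the log2 scale; the dotted line parts wild-type from knock-out hearts. All 4 genes are lowest in wild-type replicates 1 and 2 and highest in knock-out replicate 1.

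Marker lists of other cells were read in the same hearts. Among 7 atrial cardiomyocyte markers, which include Nppa, 5 were higher in the knock-out hearts, and the mean level was 8.09 to 8.39 in wild-type and 8.31 to 8.66 in knock-out hearts, with Sln and Bmp10 below background. Of 8 fibroblast markers 1 was higher, with means of 9.88 to 10.38 in wild-type and 9.76 to 10.45 in knock-out hearts. Of 6 macrophage markers 3 were higher, with means of 9.48 to 9.94 and 9.40 to 10.27. Of 6 endothelial markers 4 were higher, and their mean, 10.52 to 10.58 in wild-type and 10.59 to 10.68 in knock-out hearts, did not overlap between the groups. Of the other marker lists, only the adipocyte list below also had means that did not overlap. How often the means of gene lists beyond these separate was not computed. Among the endothelial markers the vascular growth factor receptor gene Kdr was highest, at 0.43 (limma, adjusted p = 0.391). Emcn was lowest, at -0.27 (adjusted p = 0.514). Both are named after their values were seen. Knock-out replicate 1, where Acta1 was highest, had the highest fibroblast and macrophage means. It also had the highest atrial (8.66), endothelial (10.68), and fast and skeletal muscle (7.83) means. Its ventricular marker mean of 12.33 was the lowest of the 6. Of that list Myl2, Myh6, Irx4 and Ryr2 were lowest in this heart, while Hspb7 was highest. Wild-type replicate 2, where Acta1 was lowest, had the second-highest fibroblast mean at 10.38, and wild-type replicate 3 stood at 9.88. The part of these in the Acta1 values was not tested.

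Acta1 and Tnnc2 are also genes of skeletal muscle, whose markers were read beside them. Of 13 fast and skeletal muscle markers, 9 lay above background and 8 were higher in the knock-out hearts. Myh1, Myh4, Myog and Mybpc1 were below background on average, so 2 of the 3 fast myosin heavy chains of the list were not detected. The list mean was 7.49 to 7.63 in wild-type and 7.59 to 7.83 in knock-out hearts, with members from -0.21 for Mylpf to 1.41 for Myl1. Mybpc2 was second at 1.04, and all remaining members lay between -0.21 and 0.18, so the list did not rise as a whole. Their part in the values of Acta1 and Tnnc2 was not tested.

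A further 22 genes of the thin filament were listed for context, of which 21 were measured and Actg1 had no probe of its own. They comprise the remaining troponins, tropomyosins and actins and the proteins that cap, anchor and lengthen the filament. Of the 21, 0 passed the adjusted threshold in limma and 3 had an unadjusted p under 0.05 (Acta2, Actg2 and Tmod4), where 9.90% of all probes did, with 10 higher and 11 lower and a median difference of -0.0072. The smallest p came from Acta2, the smooth muscle actin, which read 12.96, 12.76 and 11.07 in wild-type and 11.07, 10.66 and 11.20 in knock-out hearts. Wild-type replicates 1 and 2 stood far above the other 4 hearts, and wild-type replicate 3 lay within the knock-out range. The difference was -1.28 (limma, adjusted p = 0.455), and without wild-type replicate 3 it was -1.88 (adjusted p = 0.00699).

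Actg2, the enteric smooth muscle actin, followed with -0.46 (limma, adjusted p = 0.457), or -0.62 without wild-type replicate 3. Tmod4, a tropomodulin that caps the slow-growing end of the filament, read 9.54, 9.50 and 10.47 in wild-type and 10.59, 10.53 and 10.33 in knock-out hearts. Here wild-type replicates 1 and 2 were low and the other 4 hearts were high. Its difference of 0.65 (limma, adjusted p = 0.469) became 0.97 without wild-type replicate 3 (adjusted p = 0.019). So 2 of the 21, Acta2 lower and Tmod4 higher, passed without that array, where 1.34% of all probes did (293, against 6 with all arrays), and 0 of the 10 members. Without any 1 of the other 5 arrays neither gene passed, with adjusted p from 0.444 to 0.818 for Acta2 and from 0.478 to 0.842 for Tmod4. Nebl, the cardiac nebulin relative nebulette, differed by -0.29 (adjusted p = 0.516) on its brightest probe and by -0.03 (adjusted p = 0.958) on a dimmer one. The cytoplasmic actin Actb, at 13.44 ± 0.07 and 13.46 ± 0.15 (SD, n = 3), and Lmod2, the leiomodin that lengthens cardiac thin filaments, at 12.17 ± 0.26 and 12.47 ± 0.06, were the brightest of the list by mean. Lmod2 differed by 0.29 (adjusted p = 0.529), or 0.44 without wild-type replicate 3.

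Among 9 smooth muscle markers 4 were higher, and the list mean differed by -0.18. The list includes Acta2, Actg2 and Lmod1, all lower at -1.28, -0.46 and -0.21. The 6 markers outside the thin filament list, of which 4 were higher, averaged 8.65 to 8.88 in wild-type and 8.79 to 8.88 in knock-out hearts. Their mean difference was 0.058, with members from -0.18 for Tagln to 0.32 for Myh11. Of 5 adipocyte markers 4 were measured, with 2 above background and 0 higher in the knock-out hearts. They averaged 6.51 to 7.23 in wild-type and 6.30 to 6.48 in knock-out hearts, with wild-type replicates 1 and 2 highest, as for Acta2. Their mean difference was -0.51. The part of smooth muscle or fat in the Acta2 difference was not tested.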

How the data were processed

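Gene expression was measured in 3 wild-type and 3 Cenpf knock-out hearts, grouped by sample title. The deposited log2 values were made by the authors with the array normalization RMA and with Partek 6.6 (tools per the submitters' processing notes). Neither settings nor genome build were given in the sources used here. No further normalization, pseudocount or filter was applied. Of 35556 probes, 21789 had exactly 1 gene symbol in the platform annotation, 1621 had several and 12146 were unnamed here. The probes of all 10 genes kept their symbols when looked up by Entrez ID (21698 of the 21789 were found). Between 19 and 20 of the probes next to each in probe order were placed, at most 1 of them on another chromosome.

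Groups were compared with limma 3.58.1 (lmFit, eBayes, two-sided) in R 4.3.3, with Benjamini-Hochberg adjustment over the 21789 probes. The fit was tested on simulated data. Alternatives were 3 normalizations, a filter on dim probes, adjustment over all probes, averaged probes per gene, a robust variance with trend, array weights, a replicate block, each array left out, and other thresholds. Named genes were the 10 members, Cenpf, the 4 further thin filament genes of smallest p and the 2 of highest mean, the extremes of a marker list and the 3 genes nearest Acta1. The members and lists were chosen with earlier results of these data known. Figures were drawn with matplotlib 3.10.9. The number of arrays limits the precision.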

Additional observations from a re-analysis of the deposited data

How the results depend on the processing

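Across 17 settings 0 of the 10 genes passed, other than the 2 (Acta1 and Tnnc2) at an unadjusted p under 0.05 (9.90% of all probes), a threshold added after seeing the data. Those 2 became 1 with all 35556 probes fitted, and without wild-type replicate 1, wild-type replicate 2 or knock-out replicate 1. The share of all probes under that threshold is not given for these settings. At an unadjusted p under 0.01 with a change of 1.5-fold there were 0. The 21 further genes gave 3 at an unadjusted p under 0.05 (9.90% of all probes), and 0 to 2 with 1 array left out (0.00459% to 1.34%). Genes whose groups did not overlap numbered 2 with array medians subtracted (Tnnt2 and Tnnc2, where 15.2% of all probes had such groups), 3 with cyclic loess (Actc1, Tnnc2 and Tpm1, against 14.7%) and 1 to 4 with 1 array left out (21.6% to 34.2%). Acta1 ranged from 0.43 to 0.94 and Tnnc2 from 0.31 to 0.43 with 1 array left out.

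Signs near 0 turned, for Tpm1 to -0.0046 with array weights. With 1 array left out the range was -0.0019 to 0.057 for Actc1, -0.0092 to 0.07 for Tnnc1, -0.15 to 0.038 for Tnni1, -0.0052 to 0.027 for Tpm1 and -0.0036 to 0.11 for Tpm2. The cause was not tested. With the replicate number as a block, Acta1 stayed at 0.72 (limma, adjusted p = 0.483) and Tnnc2 at 0.35 (adjusted p = 0.526), with 0 calls. The labels do not say whether the numbers pair the hearts. Deviations of hearts sharing a number correlated at -0.11, -0.16 and -0.0031 over all probes. With 3 hearts a group, these values cannot show whether hearts were paired.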

Other observations

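Outside the thin filament, Myl1 and Mybpc2, a myosin light chain and a myosin-binding protein C known from fast muscle, were the 2 highest differences of the fast and skeletal muscle list and are named after their values were seen. Myl1, which is also active in the fetal and atrial heart, read 8.29, 8.53 and 9.81 in wild-type and 10.84, 9.94 and 10.08 in knock-out hearts. Mybpc2 read 7.15, 7.63 and 8.30 against 9.02, 8.87 and 8.29, so its groups overlapped. The differences were 1.41 for Myl1 and 1.04 for Mybpc2 (limma, adjusted p = 0.391 for each), and neither gene passed. In both, wild-type replicate 3 was the highest wild-type heart and knock-out replicate 1 the highest of all, as for Acta1.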
